A study of Mus musculus with 16 samples.

Results

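CTCF and cohesin are encoded or served by 10 genes whose chromatin was examined here in activated mouse B cells: Ctcf, Rad21, Smc1a, Smc3, Stag1, Stag2, Nipbl, Wapl, Pds5a and Pds5b. They were taken by symbol from the GENCODE annotation of GRCm38 (mm10), which lists 21938 protein-coding genes on chromosomes 1 to 19, X and Y. Promoter regions of a gene were the ATAC-seq peaks that touched a window around one of its annotated starts, which reached 1000 bp upstream and 100 bp downstream. Peaks elsewhere in the gene or within 10 kb of it were kept apart as other regions.

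CTCF is a zinc finger protein that binds a long DNA motif and halts cohesin, a ring-shaped protein complex that encircles DNA and extrudes it into loops. The ring is made of SMC1A, SMC3 and RAD21, with STAG1 or STAG2 bound to it. NIPBL loads cohesin and drives loop extrusion, WAPL takes cohesin off DNA, and PDS5A and PDS5B bind the ring and work in both its release and its protection. In B cells these proteins fold the immunoglobulin loci during V(D)J and class switch recombination, and cohesin also holds sister chromatids together in dividing cells.

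Open chromatin was mapped by ATAC-seq, an assay in which Tn5 transposase cuts and tags accessible DNA, in 8 libraries of splenic B cells, each from 50000 cells. All came from C57BL/6 mice carrying CD23-Cre, which deletes floxed alleles in mature B cells. In 4 libraries the mice were Brg1 fl/+, lacking 1 allele of Smarca4, the gene of the chromatin remodeler Brg1, and in 4 they were Brg1 fl/fl, lacking both. The study set these genotypes against each other to ask how Brg1 shapes accessibility. Both groups therefore carry Cre and a deleted allele, and no ATAC-seq of Brg1-intact B cells was analysed here. B cells had been separated on magnetic CD43 beads and cultured with LPS at 10 μg/mL and IL-4 at 20 ng/mL. The sample labels give 72 hours of culture, the series description 96 hours.

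The deposited lists held 6271 to 14614 peaks per library. Depth was read from the peaks themselves: the number of DNA fragments stacked at a peak's summit was solved from its deposited fold and p-value. Over promoter regions found in all lists, the median was 79, 51, 24 and 36 fragments for Brg1 fl/+ and 48, 22, 43 and 43 fragments for Brg1 fl/fl. Here and below, the 4 values of a genotype follow the replicate numbers 1 to 4. A region missing from a list was thus not detected at that depth, which does not show it to be closed. Of the B cell genes given here, Ms4a1 and Pax5 had a promoter region in all 8 lists, Ebf1 in 6 and Cd79a in 1, whereas Cd79b and Cd22 had none. None of the 11 genes of T cells, natural killer cells, myeloid cells and erythroid cells had one in any list. Of the plasma cell markers, Sdc1 had one in 7 lists and Prdm1 in 5. The Brg1 fl/fl lists 1 and 2 held no peak on the first 3 Mb of chromosome Y, where the other 6 lists held 3 to 8, and the labels do not give the sex of the mice. Nothing in the labels says whether libraries of a genotype came from separate mice. The p-values below therefore measure the spread between these libraries, which may be technical.

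Promoter chromatin of the CTCF and cohesin genes was open in both genotypes. In 9 of the 10 genes a promoter region was detected in all 8 libraries, whereas 22.2% of all protein-coding genes had such a region. Stag2 was the exception, with regions in 5 libraries or fewer. The regions of the 9 genes were 750 to 1177 bp wide, against a median of 709 bp over all promoter regions found in 8 libraries. Their GC content within 100 bp of the summit was 56.2% to 82.1%, and the median over promoter regions was 66.7%.

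Sequences around the summits are printed for Ctcf and for the members with the lowest p-values between the genotypes, Smc3, Stag1 and Nipbl. Each runs 5′ to 3′ on the strand of its gene, 201 bases of mm10 centred on the summit of the library with the best q-value. Capitals mark matches to the motifs searched, which are described after them.
Ctcf: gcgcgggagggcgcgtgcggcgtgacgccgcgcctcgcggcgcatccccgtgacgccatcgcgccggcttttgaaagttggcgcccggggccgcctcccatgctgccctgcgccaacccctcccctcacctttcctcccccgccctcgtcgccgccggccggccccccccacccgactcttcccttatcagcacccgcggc
Smc3: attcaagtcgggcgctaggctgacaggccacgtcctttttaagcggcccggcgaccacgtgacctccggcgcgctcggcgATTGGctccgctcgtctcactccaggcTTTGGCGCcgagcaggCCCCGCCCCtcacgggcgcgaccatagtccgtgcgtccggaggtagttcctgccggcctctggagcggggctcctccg
Stag1: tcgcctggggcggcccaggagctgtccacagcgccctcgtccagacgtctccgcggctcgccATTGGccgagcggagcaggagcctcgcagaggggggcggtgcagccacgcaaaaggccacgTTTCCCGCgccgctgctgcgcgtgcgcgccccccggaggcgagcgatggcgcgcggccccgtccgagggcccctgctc
Nipbl: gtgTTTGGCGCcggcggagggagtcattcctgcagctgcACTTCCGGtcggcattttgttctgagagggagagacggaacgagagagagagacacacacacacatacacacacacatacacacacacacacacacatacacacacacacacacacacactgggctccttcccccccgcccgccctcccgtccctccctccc

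The Ctcf window lies at chr8:105636308-105636508 on the plus strand, with its summit 160 bp upstream of the annotated start of Ctcf. The Smc3 window is chr19:53599999-53600199 on the plus strand, and its summit is 299 bp upstream of the Smc3 start. The Stag1 window is chr9:100643308-100643508 on the plus strand, 40 bp upstream of the nearest Stag1 start. That start is 45650 bp inside the annotated gene, and no peak of any library reached the 5′ end of the longest annotation. The Nipbl window is chr15:8444483-8444683 on the minus strand, 120 bp upstream of the only annotated start.

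The motifs were searched on both strands within 100 bases of the summit. CCAAT, the core of the NF-Y motif, was found in the main promoter region of 7 of the 10 genes, namely Rad21, Smc1a, Smc3, Stag1, Stag2, Wapl and Pds5b, and in 32.4% of 10324 promoter regions. E2F sites, searched as TTTCCCGC or TTTGGCGC, were found in 3 of the 10 genes, Smc3, Stag1 and Nipbl, and in 2.41% of all promoter regions. E2F factors drive genes of DNA replication and cell division. The SP motif GGGGCGGGG was found at Smc1a and Smc3 and in 23.1% of promoter regions, and the ETS motif CCGGAAGT at Nipbl and in 7.97%. The letters GCGCATGCG (NRF1), AAGATGGCG (YY1), TGACGTCA (CRE) and TATAAA and the CTCF consensus were in none of the 10 windows. They were in 3.78%, 3.14%, 3.50%, 2.52% and 0.901% of promoter regions. Each run of capitals above is 1 match. The Ctcf and Pds5a windows held no match to any of these motifs.

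How closely the summits of the libraries recurred differed between members, and they lay closest together at Ctcf. At Ctcf, all 8 summits lay 160 to 172 bp upstream of the start. At Smc3, they lay 227 to 299 bp upstream, at 299, 293, 228 and 299 bp for Brg1 fl/+ and at 250, 227, 250 and 250 bp for Brg1 fl/fl. No test of these positions was made. Pds5a, the least accessible of the 9, had the widest spread, from 68 bp upstream to 293 bp downstream of its start.

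**Figure D1:**
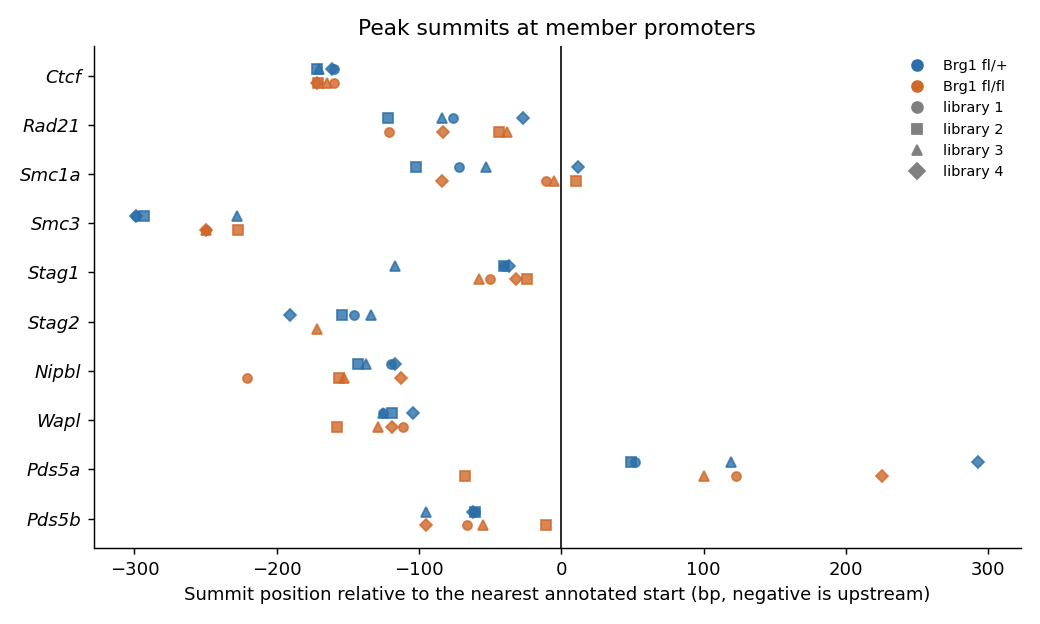
Position of the peak summit in each library relative to the nearest annotated start (x axis, bp, negative values upstream) for the main promoter region of the 10 genes. Colours stand for the genotypes and symbols for the libraries. Summits lie upstream of the start in nearly every library except at Pds5a, and Ctcf summits fall within 160 to 172 bp upstream.

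The members covered a wide range of accessibility. Levels were compared as summit fragments divided by the library's median over the 4234 promoter regions found in all 8 libraries, called relative level below. This level counts fragments over a single position, the summit of the library's best peak, and is not a sum over the length of a gene or a peak. Its relation to the width of a region was not tested. Ranks are also among these 4234 regions, so promoter regions missing from any list are left out of them. Bias of the transposase for sequence was not corrected. Stag1, one of the alternative ring-associated subunits, ranked first with a relative level of 2.57 ± 0.482 (SD, n = 8 libraries). Its mean log2 level was above that of 98.5% of the 4234 regions. Stag1 was followed by Smc3 at 2.28 ± 0.452, Ctcf at 1.73 ± 0.345 and Pds5b at 1.51 ± 0.182. Rad21, at 0.912 ± 0.191, sat near the median of these regions. Nipbl at 0.697 ± 0.186, Wapl at 0.672 ± 0.127, Smc1a at 0.553 ± 0.123 and Pds5a at 0.436 ± 0.0934 came last. Of the promoter regions found in all 8 libraries, only 1.89% had a lower mean than Pds5a.

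Not every step in this order exceeded the spread between libraries. Smc3 was above Ctcf in 8 of 8 libraries, by 0.39 ± 0.17 on the log2 scale, and Pds5b was above Rad21 in 8 of 8, by 0.75 ± 0.29 (SD, n = 8). Stag1 was above Smc3 in 7 of 8 libraries, by 0.18 ± 0.16. The remaining neighbours kept their order in 3 to 7 of 8 libraries, with gaps smaller than their SD. Ctcf and Pds5b differed by 0.18 ± 0.41, Nipbl and Wapl by 0.03 ± 0.55. Smc3 and Smc1a, whose proteins join in a dimer, stood at 96.3% and 9.54% of the ranking of promoter regions found in all 8 libraries. Smc1a lies on chromosome X, of which cells of males hold a single copy, and 6 of the 8 lists had peaks on chromosome Y. Levels were not corrected for copy number, and its part in the low rank of Smc1a was not tested. The Smc1a region is also the promoter of Ribc1, the Smc3 region that of AC137853.1 and the Wapl region that of 5830448L01Rik, each on the opposite strand, and their parts in the signal cannot be told apart. In all these values, fewer cells with an open site and less opening per cell cannot be told apart either.

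**Figure D2:**
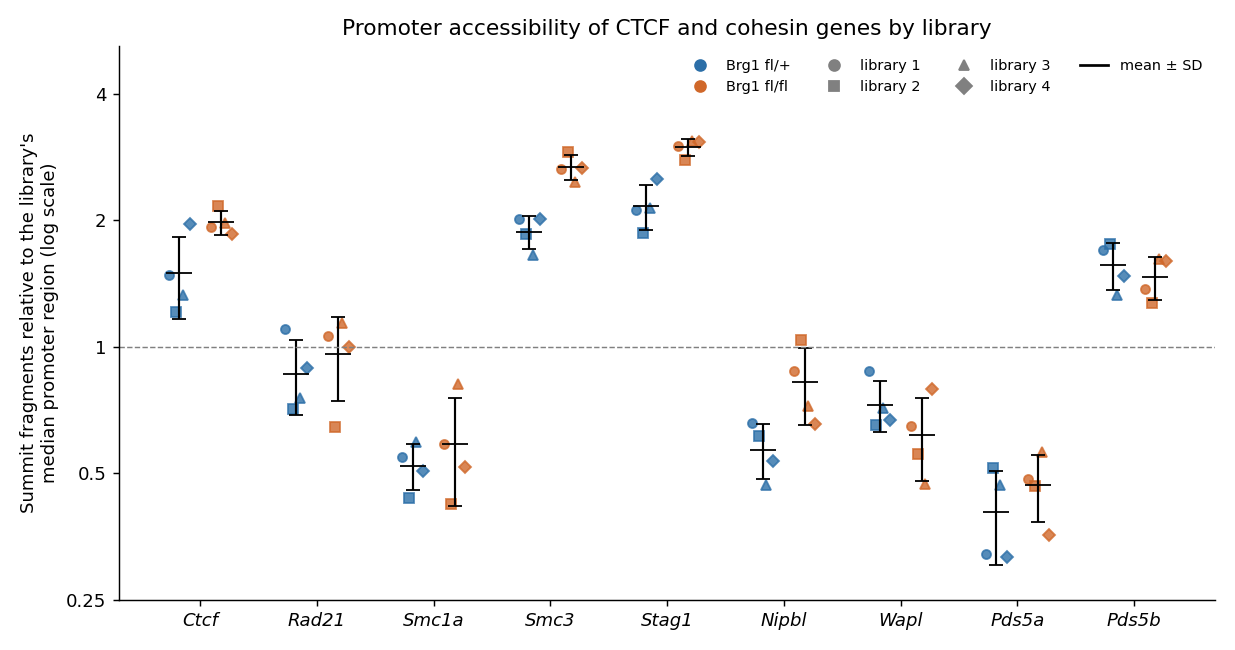
Relative level (y axis, log scale: summit fragments over the library's median promoter region, marked by the dashed line) at the main promoter region of the 9 genes detected in all libraries. Points are libraries, bars the mean ± SD of 4 libraries per genotype. At Smc3 and Stag1 all 4 Brg1 fl/fl libraries lie above all 4 Brg1 fl/+ libraries, as in 11.4% of all regions tested. The levels run from Stag1 at the top to Pds5a at the bottom.

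The genotypes were compared with limma on log2 (summit fragments + 0.5), each library centred on its median promoter region, over the 4564 regions detected in all 8 libraries. Of the 9 members, 3 were called higher in Brg1 fl/fl and 0 lower at a Benjamini-Hochberg adjusted p below 0.05. Over all regions tested, 9.42% were called higher and 3.51% lower. The median difference of the 9 members was 0.22 on the log2 scale, against 0.065 over all regions, and was 0.12 after quantile and 0.15 after cyclic loess normalization. This balance depended on the scaling: 72.9% of all 590 calls were higher in Brg1 fl/fl after median centring, but 53.2% of 421 calls after quantile normalization and 55.9% of 433 calls after cyclic loess normalization. The difference also varied with the level of a region. In the 457 regions with the highest levels, which include those of Stag1 and Smc3, the median difference was 0.20 and 23.4% of regions were called higher. After quantile normalization the median there was 0.01. In regions of middle level the median was -0.005 after median centring. Positive differences were also frequent among regions of the lowest levels, where Pds5a lies, and no median is given for them here. Under quantile or cyclic loess normalization, 0 of the 9 members were called in limma with Benjamini-Hochberg adjustment, while 4.91% and 5.30% of all regions were still called higher. At an unadjusted p below 0.05 the median-centred fit had 4 of the 9 members, the 3 called and Nipbl, and 27.3% of all regions in either direction.

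Ctcf itself was among the 3 called. Its promoter region held 117, 62, 32 and 71 fragments for Brg1 fl/+ and 93, 48, 85 and 80 for Brg1 fl/fl. Scaled to the median promoter, these were 1.48, 1.21, 1.33 and 1.96 for Brg1 fl/+ and 1.93, 2.16, 1.97 and 1.85 for Brg1 fl/fl. Brg1 fl/+ library 4 lay within the range of the Brg1 fl/fl libraries, so the groups overlapped, and the other 3 Brg1 fl/+ libraries were lower than all Brg1 fl/fl libraries. The means were 1.49 ± 0.328 and 1.97 ± 0.13 (SD, n = 4 each). The log2 difference of 0.42 ± 0.13 (SE), a 1.34-fold higher level in Brg1 fl/fl, passed in limma with an adjusted p of 0.0245. The call was lost without Brg1 fl/+ library 2, where the difference was 0.34 and the limma adjusted p 0.106. It was also lost without Brg1 fl/fl libraries 1 and 2, with limma giving 0.40 and an adjusted p of 0.145. After quantile normalization the difference was 0.32 and the limma adjusted p 0.113. Over all 70 ways to assign the genotypes to the libraries, an exact permutation test gave p = 0.0857 (two-sided, unadjusted). On the deposited fold the difference was 0.23 (limma adjusted p = 0.221), and with an untrended variance the limma adjusted p was 0.0948.

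Among the ring subunits, Smc3 rose in Brg1 fl/fl and the other 2 did not pass the test. SMC3 forms the ring's hinge and ATPase heads together with SMC1A, and its acetylation locks cohesin on DNA. The Smc3 promoter held 159, 95, 40 and 73 fragments for Brg1 fl/+ and 128, 65, 107 and 115 for Brg1 fl/fl. The relative levels were 2.01, 1.85, 1.65 and 2.01 for Brg1 fl/+ and 2.65, 2.91, 2.47 and 2.66 for Brg1 fl/fl. The groups did not overlap, as was also the case, in this direction, in 11.4% of all regions tested. The log2 difference was 0.51 ± 0.11 (SE) and the limma adjusted p 0.00185, and the exact permutation p was 0.0286, the smallest the 70 assignments can give. The difference shrank to 0.32 with a limma adjusted p of 0.0537 after quantile normalization and to 0.31 with 0.0591 after cyclic loess normalization. On the deposited fold it was 0.29 with 0.0576.

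The Rad21 promoter, at chr15:51991092-51991971, did not pass the test between the genotypes. RAD21 is the subunit that closes the ring and is cut by separase when chromatids part. Its relative levels were 1.10, 0.709, 0.755 and 0.890 for Brg1 fl/+ and 1.06, 0.644, 1.14 and 1.00 for Brg1 fl/fl. The lowest and the highest library were both Brg1 fl/fl, and the difference was 0.14 ± 0.17 (SE; limma adjusted p = 0.639). It was 0.35 without Brg1 fl/fl library 2 (limma adjusted p = 0.159), 0.27 without Brg1 fl/+ library 1, and 0.06 without Brg1 fl/+ library 2 or Brg1 fl/fl library 3.

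Smc1a, on chromosome X, had 43, 22, 14 and 18 fragments for Brg1 fl/+ and 28, 9, 35 and 22 for Brg1 fl/fl. Relative levels were 0.437 to 0.592 among Brg1 fl/+ and 0.422 to 0.816 among Brg1 fl/fl libraries, with overlap throughout. The difference of 0.14 ± 0.21 (SE) had a limma adjusted p of 0.713, and without Brg1 fl/fl library 3, the highest, it was -0.02. Without Brg1 fl/fl library 2, the lowest, it was 0.31, and without Brg1 fl/+ library 2 it was 0.06. Without Brg1 fl/fl libraries 1 and 2, the lists that lacked chromosome Y peaks, it was 0.35 (limma adjusted p = 0.412), the highest of all settings.

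Each cohesin ring carries either STAG1 or STAG2, whose genes are paralogues, and no test compared them. Stag1 had 168, 96, 52 and 91 fragments for Brg1 fl/+ and 145, 62, 134 and 133 for Brg1 fl/fl. Its relative levels were 2.12, 1.87, 2.14 and 2.51 for Brg1 fl/+ and 3.00, 2.78, 3.09 and 3.07 for Brg1 fl/fl. Every Brg1 fl/fl library was above every Brg1 fl/+ library, as in 11.4% of all regions tested. The means were 2.16 ± 0.261 for Brg1 fl/+ and 2.98 ± 0.143 for Brg1 fl/fl (SD, n = 4 each). The log2 difference was 0.47 ± 0.11 (SE; limma adjusted p = 0.00341). The exact permutation p was 0.0286, the smallest possible, which any region with such separated groups reaches. After quantile normalization it was 0.27 with a limma adjusted p of 0.107, and after cyclic loess normalization 0.23 with 0.141. On the deposited fold over local background, Stag1 alone among the members passed, at 0.41 with a limma adjusted p of 0.0188.

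Stag2, on chromosome X, had no promoter region in all 8 libraries and so could not be tested by limma. Its region at the annotated 5′ end held 43, 31, 9 and 22 fragments in Brg1 fl/+ libraries 1 to 4 and 22 in Brg1 fl/fl library 3. The other 3 Brg1 fl/fl lists, of libraries 1, 2 and 4, had no peak there. Their median promoters held 48, 22 and 43 fragments, against 79, 51, 24 and 36 in Brg1 fl/+. The part of depth in these missing peaks was not tested. Detection in 4 Brg1 fl/+ and at most 1 Brg1 fl/fl libraries was seen at 0.620% of promoter regions. A second region, with its summit 1125 bp inside the gene and shared with Gm37564 on the opposite strand, went the other way. It held 34 fragments in Brg1 fl/+ library 1, no peak in the other 3 Brg1 fl/+ lists or in Brg1 fl/fl library 1, and 11, 25 and 22 fragments in Brg1 fl/fl libraries 2 to 4. Detection in at most 1 Brg1 fl/+ and at least 3 Brg1 fl/fl libraries was seen at 0.368% of promoter regions. Both shares are given as description, since Stag2 was set against them after its pattern was seen. Of the Brg1 fl/fl libraries 3 and 4, which had peaks on chromosome Y as the Brg1 fl/+ libraries did, library 3 showed both Stag2 regions and library 4 the inner one, and the part of chromosome Y status in the Stag2 pattern was not tested.

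The sequences of the 2 Stag2 regions are shown because detection at them went in opposite directions. The first is chrX:42149071-42149271 and the second chrX:42150342-42150542, both on the plus strand, with the single NF-Y match in capitals.
Stag2, 5′ end: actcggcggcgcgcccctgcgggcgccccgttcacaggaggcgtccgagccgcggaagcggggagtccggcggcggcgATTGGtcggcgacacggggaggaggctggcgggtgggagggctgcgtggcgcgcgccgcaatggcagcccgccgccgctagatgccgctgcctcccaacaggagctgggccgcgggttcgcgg
Stag2, inside the gene: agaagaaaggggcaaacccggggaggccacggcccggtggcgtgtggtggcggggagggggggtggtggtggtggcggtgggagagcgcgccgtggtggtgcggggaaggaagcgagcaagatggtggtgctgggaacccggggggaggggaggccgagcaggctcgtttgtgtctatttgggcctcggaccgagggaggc

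**Figure D3:**
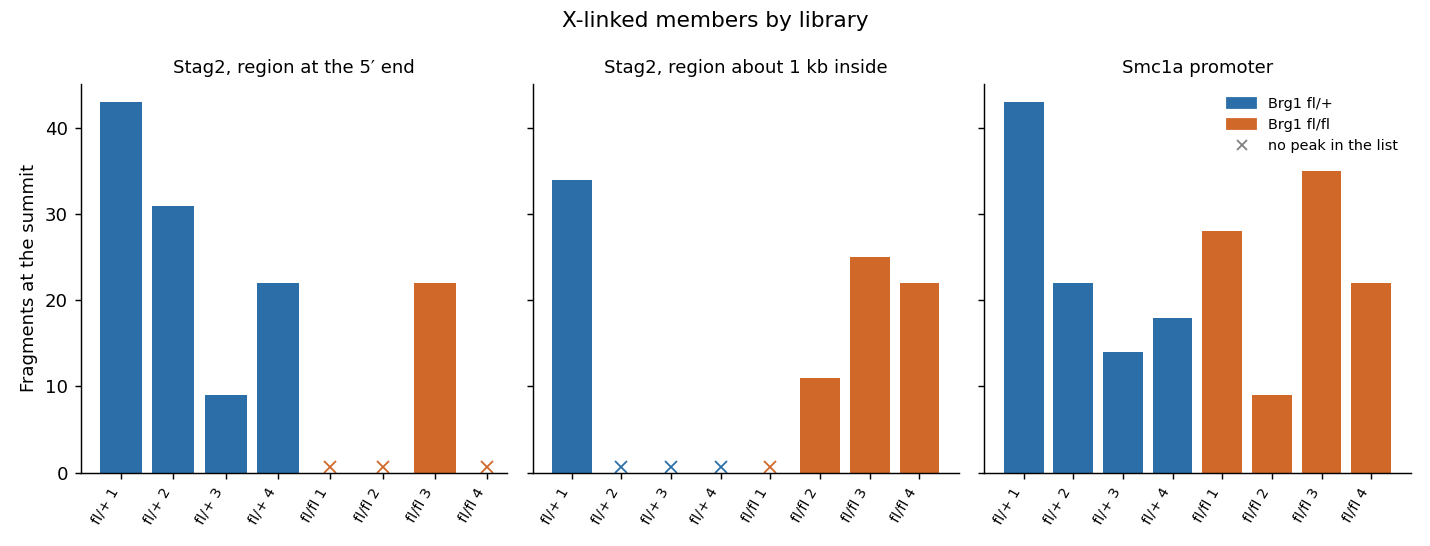
Fragments at the summit (y axis) in each of the 8 lists for the 2 Stag2 promoter regions and for Smc1a, the other X-linked member. Crosses mark lists without a peak. The region at the 5′ end of Stag2 has peaks in 4 Brg1 fl/+ lists and 1 Brg1 fl/fl list, the inner region in 1 and 3, and Smc1a in all 8.

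Nipbl, the gene of the loader, had the largest difference of the 9 members on the log2 scale but did not pass the test. It held 52, 31, 11 and 19 fragments for Brg1 fl/+ and 42, 23, 31 and 28 for Brg1 fl/fl. The relative levels were 0.660, 0.612, 0.469 and 0.534 for Brg1 fl/+ and 0.876, 1.04, 0.724 and 0.655 for Brg1 fl/fl. A single pair of libraries, Brg1 fl/+ 1 and Brg1 fl/fl 4, crossed. The difference was 0.52 ± 0.18 (SE), with a limma adjusted p of 0.052. Of 26 other settings, 7 brought the adjusted p below 0.05. The limma adjusted p was 0.0852 after quantile and 0.0624 after cyclic loess normalization, 0.113 on the deposited fold and 0.104 with pairs of libraries averaged. Without Brg1 fl/fl libraries 1 and 2 the difference was 0.31 with a limma adjusted p of 0.432. A further region 979 bp upstream of the Nipbl start was found in Brg1 fl/+ library 1 only, with 24 fragments.

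The Wapl promoter, at chr14:34673440-34674391, was one of 2 members with a lower mean in Brg1 fl/fl. Relative levels were 0.874, 0.650, 0.714 and 0.671 for Brg1 fl/+ and 0.649, 0.556, 0.471 and 0.793 for Brg1 fl/fl. Brg1 fl/fl libraries 1 to 3 lay below all Brg1 fl/+ libraries and library 4 above 3 of them. The difference of -0.25 ± 0.19 (SE) did not pass in limma (adjusted p = 0.397). It was -0.12 without Brg1 fl/fl library 3, -0.16 without Brg1 fl/+ library 1 and -0.38 without Brg1 fl/fl library 4. An internal Wapl start had a region in Brg1 fl/fl library 1 only, with 10 fragments.

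Neither PDS5 gene passed the test. Pds5b, at chr5:150673507-150674256, had relative levels of 1.33 to 1.76 among Brg1 fl/+ and 1.27 to 1.62 among Brg1 fl/fl libraries, and a difference of -0.09 ± 0.13 (SE; limma adjusted p = 0.685), which was -0.18 after quantile or cyclic loess normalization. Pds5a, at chr5:65697685-65698608, had 25, 26, 11 and 11 fragments for Brg1 fl/+ and 23, 10, 24 and 15 for Brg1 fl/fl. Its difference was 0.22 ± 0.22 (SE; limma adjusted p = 0.561). With 1 library left out it ran from 0.10 without Brg1 fl/+ library 4 to 0.36 without Brg1 fl/+ library 2, and it was 0.04 after quantile and 0.03 after cyclic loess normalization. At these depths a change of the size called at Ctcf would lie within 2 SE of 0 at Pds5a, so a difference of that size was not detectable there.

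**Figure D4:**
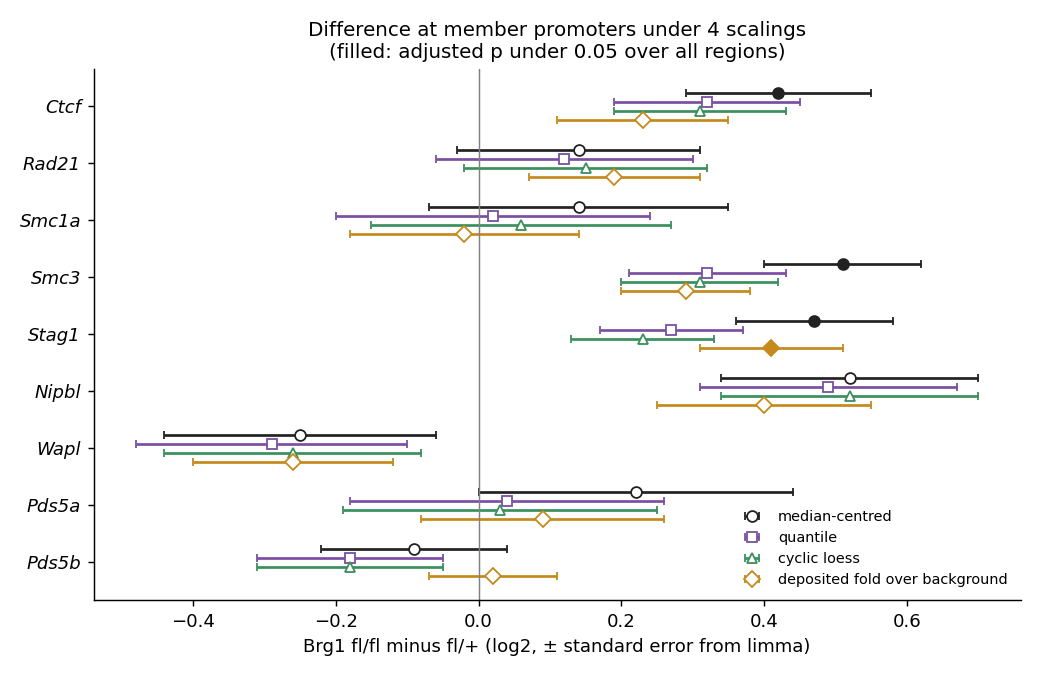
Log2 difference between Brg1 fl/fl and Brg1 fl/+ (x axis, ± standard error from limma) at the main promoter of the 9 genes under 4 ways of scaling the libraries. Filled symbols have an adjusted p below 0.05. Ctcf, Smc3 and Stag1 are filled after median centring, Stag1 also on the deposited fold, and none after quantile or cyclic loess normalization.

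**Figure D5:**
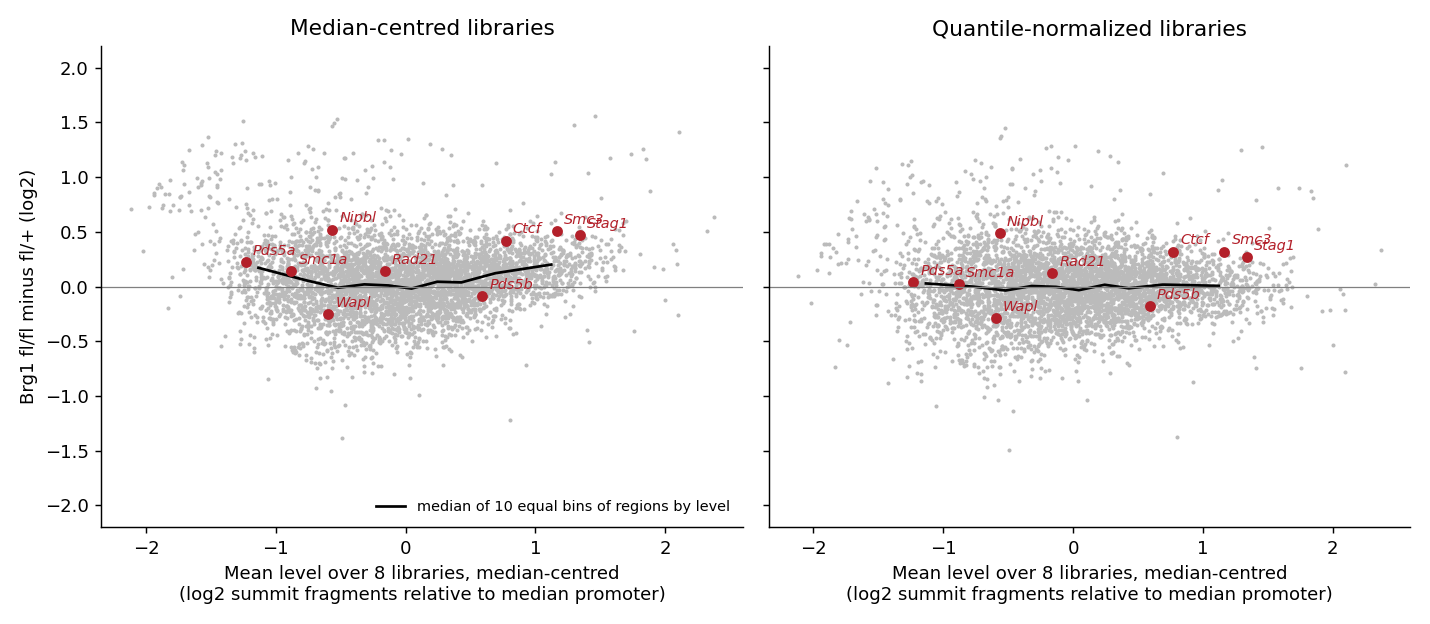
Log2 difference between Brg1 fl/fl and Brg1 fl/+ (y axis) against the mean level over 8 libraries (x axis) for the 4564 regions, with the 9 members in red and the median of 10 equal bins of regions by level as a line, after median centring (left) and quantile normalization (right). After median centring the line reaches 0.20 at the highest levels, where Smc3 and Stag1 lie, and after quantile normalization it is 0.01 there. Positive differences are also frequent at the lowest levels after median centring, where Pds5a lies.

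Little open chromatin was found around the members besides their promoters. The 10 genes span 1114 kb, and with 10 kb on either side only 2 other regions were detected, both of them promoters of neighbouring genes. Of the 9 members with a promoter region in all libraries, 2 had another region, against 43.0% of the protein-coding genes with such a promoter region. One, 8022 bp upstream of Pds5b at the promoter of N4bp2l2 (chr5:150665179-150665924), was detected in all 8 libraries with 57, 47, 16 and 24 fragments for Brg1 fl/+ and 35, 23, 42 and 37 for Brg1 fl/fl. Its difference was 0.27 ± 0.17 (SE; limma adjusted p = 0.297). The other, beyond the 3′ end of Ctcf at the promoter of Carmil2, was found in Brg1 fl/+ library 1 only, with 16 fragments. No region in an intron of a member away from an annotated start was detected in any library.

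Related genes were taken as 34 genes in 5 groups, of which 22 had a promoter region in all 8 libraries. Of these 22, 2 were called higher in Brg1 fl/fl and 0 lower, a share near the 9.42% of all regions called higher. Esco1 encodes an acetyltransferase of SMC3. Its promoter held 58, 30, 16 and 27 fragments for Brg1 fl/+ and 42, 22, 44 and 42 for Brg1 fl/fl, with a difference of 0.50 ± 0.16 (SE; limma adjusted p = 0.0327). Its call was lost without Brg1 fl/+ library 2 (limma adjusted p = 0.103), without Brg1 fl/fl library 3 (0.0698) or library 4 (0.0688), and after quantile normalization (0.0523). It was also lost without Brg1 fl/fl libraries 1 and 2 (limma adjusted p = 0.0796), with pairs of libraries averaged (0.0747), on the deposited fold (0.273) and with −log10 q held to 10 or more (0.0509). Yy1 encodes a zinc finger factor found at promoter and enhancer loops. Its promoter region is also that of Gm34220, and their parts in the signal cannot be told apart. The region held 119, 75, 38 and 61 fragments for Brg1 fl/+ and 101, 52, 84 and 100 for Brg1 fl/fl. It differed by 0.48 ± 0.11 (SE; limma adjusted p = 0.0047). The Yy1 call held after quantile normalization, at 0.35 with a limma adjusted p of 0.0373, and after cyclic loess normalization, at 0.34 with 0.0429.

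The 5 groups are given by how many of their genes were detected in all 8 lists, and no test compared them. All 6 genes of the SMC5/6 complex, a relative of cohesin in DNA repair, had a promoter region in all 8 libraries, as had 6 of 8 condensin genes, which compact mitotic chromosomes. None of these 12 was called. After median centring the median differences were 0.26 and -0.04, against 0.065 over all regions. The SMC5/6 differences ran from -0.42 to 0.34, and from -0.44 to 0.28 after quantile normalization. Among genes for the loading, acetylation, release and cleavage of cohesin, 4 of 9 were detected in all libraries and 4 in some. Of 6 factors that act beside CTCF, Yy1 among them, 5 were detected in all libraries, with a median difference of 0.30 after median centring. Their differences ran from -0.21 to 0.48, and from -0.24 to 0.35 after quantile normalization. Espl1, the gene of separase, was detected in 4 Brg1 fl/+ libraries, with 28, 17, 10 and 14 fragments, and in 0 Brg1 fl/fl libraries. Each count was below the median promoter of its library, and a missing peak does not show a closed site. Detection in 4 Brg1 fl/+ and at most 1 Brg1 fl/fl libraries was seen at 0.620% of promoter regions. Espl1 was singled out after its values were seen. Of the 5 paralogues used mainly in the germline, Stag3 had a region in all libraries, which is also the promoter of Gpc2, and Smc1b, Rec8, Rad21l and Ctcfl had none.

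The promoters whose levels moved most like that of Ctcf were those of Kpna3, Nhej1 and Rnf14, with Pearson correlations of 0.973, 0.962 and 0.961 over the 8 centred libraries among 4842 genes outside the members. Within the members, the correlation with Ctcf was 0.883 for Stag1, 0.836 for Smc3 and 0.622 for Nipbl, and -0.444 for Wapl. All points share libraries and genotypes, and the correlations are given as description.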

How the data were processed

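ATAC-seq of 8 libraries was analysed, 4 per genotype, grouped by the sample labels. Per the study's methods, Bowtie2 was the aligner, mm10 the genome and MACS2 the peak caller, and the authors deposited 1 list per library. Tool versions, MACS2 options, duplicate removal and transposase shift are not given in the sources used here. Of each deposited list, the fold over local background (a ratio), the −log10 p and the −log10 q were used. The authors' normalized coverage, their DESeq2 comparison and 8 RNA-seq libraries were not analysed here.

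Summit fragments were solved as the whole number that gives both the deposited fold and, within 0.002, the −log10 p under MACS2's Poisson model. This held for at least 99.7% of peaks per list. Peaks of any list that overlapped or touched were merged into 16566 regions, a library detecting a region that any of its peaks lay in, with its best peak by q, then fold. The main promoter region of a gene was that in most libraries, then best ranked by q. Of 4593 regions in all 8 lists, 29 with an unsolved summit were left out. The fit used limma 3.58.1 in R 4.3.3 with trended variance and Benjamini-Hochberg adjustment over all 4564 regions, and the threshold was 0.05. Correlations, sequence matches and permutation tests were made in Python 3.11.15 (scipy 1.17.1, pandas 2.3.3, pysam 0.24.0). The genome was checked on 300 RefSeq promoter sequences, all identical. The solving of summit fragments and the limma fit were also run on simulated data. The simulated libraries were independent, with no genotype difference that varied with level, so that run does not bear on either limit in the real libraries.

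Members and gene groups were chosen with earlier results of these data known. All 10 members were named. A B cell marker gene is not reported here. Of the other genes, those called were named, and the 3 genes most like Ctcf by Pearson correlation. Espl1 and the germline paralogues were named in addition, after their values were seen. Alternatives covered scaling, test, peak threshold, joining, promoter definition and each library left out. Leaving out Brg1 fl/fl libraries 1 and 2 together was added after the data were seen. Peak names number the lists 1A, 1B, 2A and 2B within a genotype. Libraries of 1 genotype differed by 0.756 to 1.18 times the counting noise, libraries of different genotypes by 0.998 to 1.81 times. By themselves, these counts do not tell separate libraries of a genotype from repeats of 1 library. In Brg1 fl/fl, lists 1A and 1B held 0 peaks on the first 3 Mb of chromosome Y, and lists 2A and 2B held 3 and 4. Whether lists of a pair share a mouse was not tested. With libraries 1 and 2, and 3 and 4, averaged (2 against 2), limma adjusted p-values were 0.0464 for Ctcf, 0.0107 for Smc3 and 0.0185 for Stag1. Counts at a summit carry counting error, and with 4 libraries per genotype their number limits the precision.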

Additional observations from a re-analysis of the deposited data

How the results depend on the processing

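The count of 3 members called fell to 1 on the deposited fold (Stag1), to 0 after quantile and 0 after cyclic loess normalization, and to 0 with the exact permutation test and 0 with ranks by q, where no region can pass after adjustment unless most reach the smallest p of 0.0286. With each library left out it ranged from 2 to 4. It was 4 with libraries 1 and 2, and 3 and 4, as blocks, and with regions within 500 bp joined. It was also 4 with a wider promoter window and with promoters set by region centre. It was 2 with an untrended variance, without Brg1 fl/fl libraries 1 and 2, and with 50% of a region covered, where only 2 members were tested. The replicate block, which used shared replicate numbers that no label ties to an animal (correlations of same-numbered libraries -0.0613 to -0.008), gave 4 called members, Nipbl being added, and 576 called regions against 590. The count of 2 called genes in the other groups fell to 1 on the deposited fold, 1 after quantile normalization, 1 with pairs of libraries averaged, 1 with −log10 q held to 10 or more and 1 with 50% of a region covered, to 0 with both permutation tests, and ranged from 1 to 4 with each library left out. It was 3 with library pairs as blocks, regions within 500 bp joined, a wider promoter window or promoters set by region centre. Promoter regions in all 8 libraries numbered 9, and 9 with each library left out. They numbered 7 with −log10 q held to 5 or more, 5 with it held to 10 or more, and 8 with peak numbers made equal across lists. With 50% of a region covered they numbered 2. These lower numbers follow from fewer detections. With promoters set by region centre they numbered 8. Other regions numbered 2, with 1 with −log10 q held to 10 or more, 1 with peak numbers made equal across lists, 3 with promoters set by region centre or by starts of coding transcripts, and 1 to 2 with each library left out (1 without Brg1 fl/+ library 1). Differences that were not called changed sign on the deposited fold for Smc1a (-0.02) and Pds5b (0.02), with a library left out for Smc1a (range -0.02 to 0.31), without Brg1 fl/fl libraries 1 and 2 for Pds5b (0.08), and by rank, in percentage points, for Smc1a (-2.07) and Pds5a (-0.45). The cause of these changes was not tested. Differences of Ctcf, Smc3, Stag1 and Nipbl stayed positive in every setting run.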
